A study of Homo sapiens with 60 samples.

Results

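RNA from HCT116 spheroids, round aggregates of a line derived from a human colorectal carcinoma, was compared between all exposed and all untreated libraries of Medium 2. The members are the 30 Medium 2 libraries of a series of 60. They are the 25 exposed libraries, 5 for each exposure, and the 5 untreated ones. The exposures were hemin (0.1 µM), its combination with kynurenine, and butyrate, kynurenic acid or kynurenine alone (1 µM each). The title of the combination gives 1 µM once, and the hemin dose of 0.1 µM was taken from the treatment protocol. Exposure ran between day 1 and day 8 after seeding in agarose wells, and all groups shared a DMEM base rich in glucose, with serum (10%), antibiotics and non-essential amino acids. The series includes spheroids sampled at once and after 3 h of nutrient deprivation, and the labels used here do not say which of these is Medium 1 and which is Medium 2. The members were picked by label alone, and the average gave each of the 5 exposed groups equal weight. The comparison asks which transcripts moved the same way with every compound, and how far that rests on the untreated libraries that all 5 single-compound comparisons share.

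The compounds act through different known routes. Butyrate is a short-chain fatty acid of gut bacteria that inhibits histone deacetylases. Hemin is the oxidised form of heme, whose breakdown by heme oxygenase releases iron. Kynurenine arises when tryptophan is broken down, kynurenic acid is made from it, and both are ligands of the aryl hydrocarbon receptor, a transcription factor that switches on CYP1A1. Several genes described here belong to fast or stress-sensitive programmes: immediate early genes answer growth factors and handling, interferon-stimulated genes answer viral RNA and interferon, HES1 answers Notch signals, and DDIT4 answers energy and oxygen shortage by restraining mTORC1.

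Libraries were 3′-end RNA sequencing with molecular identifiers. Values are estimated counts per gene, also given as CPM, the usual depth-scaled unit, with library sizes adjusted by the trimmed mean of M values (TMM). The total was 1346135 to 2981625 counts in exposed and 1617479 to 1934973 in untreated libraries of Medium 2. Of 29744 genes in the table, 11298 had enough counts to be tested. The kynurenine library of well A7 stood farthest from its group mean, at a root mean square distance of 0.768 in log2 CPM, and the hemin with kynurenine library of well H7 at 0.554. The untreated libraries lay between 0.404 and 0.457. In total count, genes detected, share of the 50 most counted genes, share of ribosomal protein genes, correlation with other libraries and distance from the group mean, the exact two-sided permutation test over 142506 choices of 5 of 30 libraries gave adjusted p between 0.754 and 0.973, and between 0.702 and 0.872 without well A7. Of 12 colon epithelial markers, 7 were tested and 2 were at 0, with summed levels of 1220 to 1534 CPM in exposed and 1342 to 1556 CPM in untreated libraries. Of 19 measured markers of fibroblasts, blood, endothelium and other cells, 5 were at 0 and the sum was 3.18 to 10.3 CPM in exposed and 2.47 to 11.5 CPM in untreated libraries. Both marker sums are scaled by the total count alone, without the TMM adjustment. Each group filled consecutive wells down the plate, so neighbouring wells and group cannot be told apart, while plate rows hold several groups.

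Averaged over the 5 compounds, 2 genes were higher and 7 were lower in exposed than in untreated spheroids of Medium 2, at an adjusted p under 0.05 (edgeR quasi-likelihood F-test, with the Benjamini-Hochberg method over 11298 genes). These are 0.0177% and 0.062% of the tested genes, 0.0797% in all, and 875 genes had an unadjusted p under 0.05. The 7 that fell were HES1, IFIT2, EGR1, DDIT4, SOX4, SEPP1 and IFIT1. The 2 that rose were COMMD5 and ALDH1A3. All 9 had one sign in all 5 single-compound comparisons. One sign in all 5 was held by 1826 genes on the higher side and 1901 on the lower side, which is 16.2% and 16.8% of those tested, and 839 of these 3727 genes had an unadjusted p under 0.05 in the average. The 5 comparisons share the untreated libraries, so the shared sign is a count and not a test.

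HES1, EGR1 and DDIT4, which fell, and ALDH1A3, which rose, had the smallest p in the average among those of the 9 with a promoter entry. The promoters of these 4 are printed. Each is the 250 bases before the RefSeq start in GRCh38.p14, on the plus strand, 5′ to 3′. Capitals mark any of 8 short motifs searched on both strands.
HES1, chr3:194135898-194136147: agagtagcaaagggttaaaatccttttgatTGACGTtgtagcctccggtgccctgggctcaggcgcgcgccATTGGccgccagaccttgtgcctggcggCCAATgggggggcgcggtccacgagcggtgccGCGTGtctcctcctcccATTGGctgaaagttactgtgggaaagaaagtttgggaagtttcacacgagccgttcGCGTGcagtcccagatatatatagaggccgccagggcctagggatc
EGR1, chr5:138465229-138465478: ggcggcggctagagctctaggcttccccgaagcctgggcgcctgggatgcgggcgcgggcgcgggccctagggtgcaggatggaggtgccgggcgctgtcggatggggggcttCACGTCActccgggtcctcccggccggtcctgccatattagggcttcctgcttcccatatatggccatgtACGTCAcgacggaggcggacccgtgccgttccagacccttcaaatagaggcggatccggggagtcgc
ALDH1A3, chr15:100879581-100879830: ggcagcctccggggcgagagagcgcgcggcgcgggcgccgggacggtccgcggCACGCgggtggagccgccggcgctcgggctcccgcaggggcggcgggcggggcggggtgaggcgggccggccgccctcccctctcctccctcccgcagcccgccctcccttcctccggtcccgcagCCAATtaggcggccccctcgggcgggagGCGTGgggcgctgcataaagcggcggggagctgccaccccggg
DDIT4, chr10:72273674-72273923: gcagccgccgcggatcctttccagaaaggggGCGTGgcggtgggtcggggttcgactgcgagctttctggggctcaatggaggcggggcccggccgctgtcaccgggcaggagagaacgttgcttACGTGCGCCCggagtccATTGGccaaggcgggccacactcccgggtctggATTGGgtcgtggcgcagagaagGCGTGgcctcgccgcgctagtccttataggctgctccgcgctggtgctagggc
A promoter was found for 7 of the 9 genes, and IFIT2 and COMMD5 had no entry. The core of the cyclic AMP response element, TGACGT, was in HES1 and EGR1 and in 7.1% of 35116 RefSeq promoters. The hypoxia response core, ACGTG, was in EGR1 and DDIT4 and in 18.5% of promoters. In EGR1 it overlaps a cyclic AMP core, and in DDIT4 it overlaps the metal response core TGCGCNC, which 16.8% of promoters hold. The xenobiotic response core of the aryl hydrocarbon receptor, GCGTG, was in HES1, ALDH1A3, DDIT4 and SOX4 and in 32.2% of promoters. The CCAAT box was in HES1, ALDH1A3, DDIT4, SOX4 and IFIT1 and in 32% of promoters, and the TATA box, TATAAA, was in SEPP1 and in 10.7%. Neither the AP-1 site TGANTCA, held by 6.57%, nor the E-box CACGTG, held by 6.34%, was in any of the 7. The letters are a description of these windows.

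HES1, a helix-loop-helix repressor that Notch signalling induces, had the largest fall among the 9 genes. It had 38.9, 45.2, 38.5, 39.4 and 30.4 CPM with butyrate, and 36.6, 31.2, 22.1, 33.1 and 29.96 CPM with hemin. With kynurenine it had 48.4, 17.1, 32.2, 14.96 and 41.01 CPM, and with kynurenic acid 38.2, 32.8, 35.8, 30.3 and 23.6 CPM. The combination gave 15.2, 28.9, 23.96, 25.4 and 36.1 CPM, against 60.6, 49.7, 85.2, 58.1 and 58.8 CPM in untreated spheroids. All 25 exposed libraries lay below all 5 untreated ones, and the highest exposed library, at 48.4 CPM, came close to the lowest untreated one. The means were 31.6 ± 8.78 CPM in exposed (SD, n = 25) and 62.5 ± 13.4 CPM in untreated libraries (SD, n = 5). The exposed SD pools the 5 exposures, whose means ran between 25.9 CPM with the combination and 38.5 CPM with butyrate. It is therefore not the spread of replicates of 1 condition. The averaged log2 fold change was -0.996 (95% interval -1.33 to -0.67, adjusted p = 0.000644, edgeR). HES1 lies at chr3:194136148-194138732 and overlaps no other gene in the annotation used.

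IFIT2, an interferon-induced protein with tetratricopeptide repeats, also separated completely. It had 154, 130, 114, 167 and 166 CPM with butyrate, 156, 168, 119, 137 and 149.8 CPM with hemin, and 164, 110.3, 132, 115 and 172 CPM with kynurenine. It had 149, 114, 124, 135 and 138 CPM with kynurenic acid and 61.6, 123, 128, 135 and 120.4 CPM with the combination, against 226, 199, 266, 184 and 186 CPM in untreated spheroids. Every exposed library was below every untreated one, and the lowest value was the 61.6 CPM of well H7. The averaged log2 fold change was -0.65 (95% interval -0.87 to -0.44, adjusted p = 0.000644, edgeR). HES1 and IFIT2 were the 2 genes of the 11298, or 0.0177%, whose untreated libraries were all above all exposed ones, and in 0 genes were they all below. IFIT1, of the same family and chromosome 10, spanned 311 to 511 CPM in exposed libraries with a median of 421 CPM, against 560.2, 547, 579, 507 and 498.5 CPM in untreated ones. Of the 25 exposed libraries 23 were below all untreated ones, and the fold was smaller, at -0.38 on the log2 scale (adjusted p = 0.0267, edgeR). IFIT2 (chr10:89302046-89309271) and IFIT1 (chr10:89392623-89406487) both lie inside LIPA on the opposite strand. No source used here says whether counting used strand, so reads of such overlapping pairs may be shared.

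**Figure D1:**
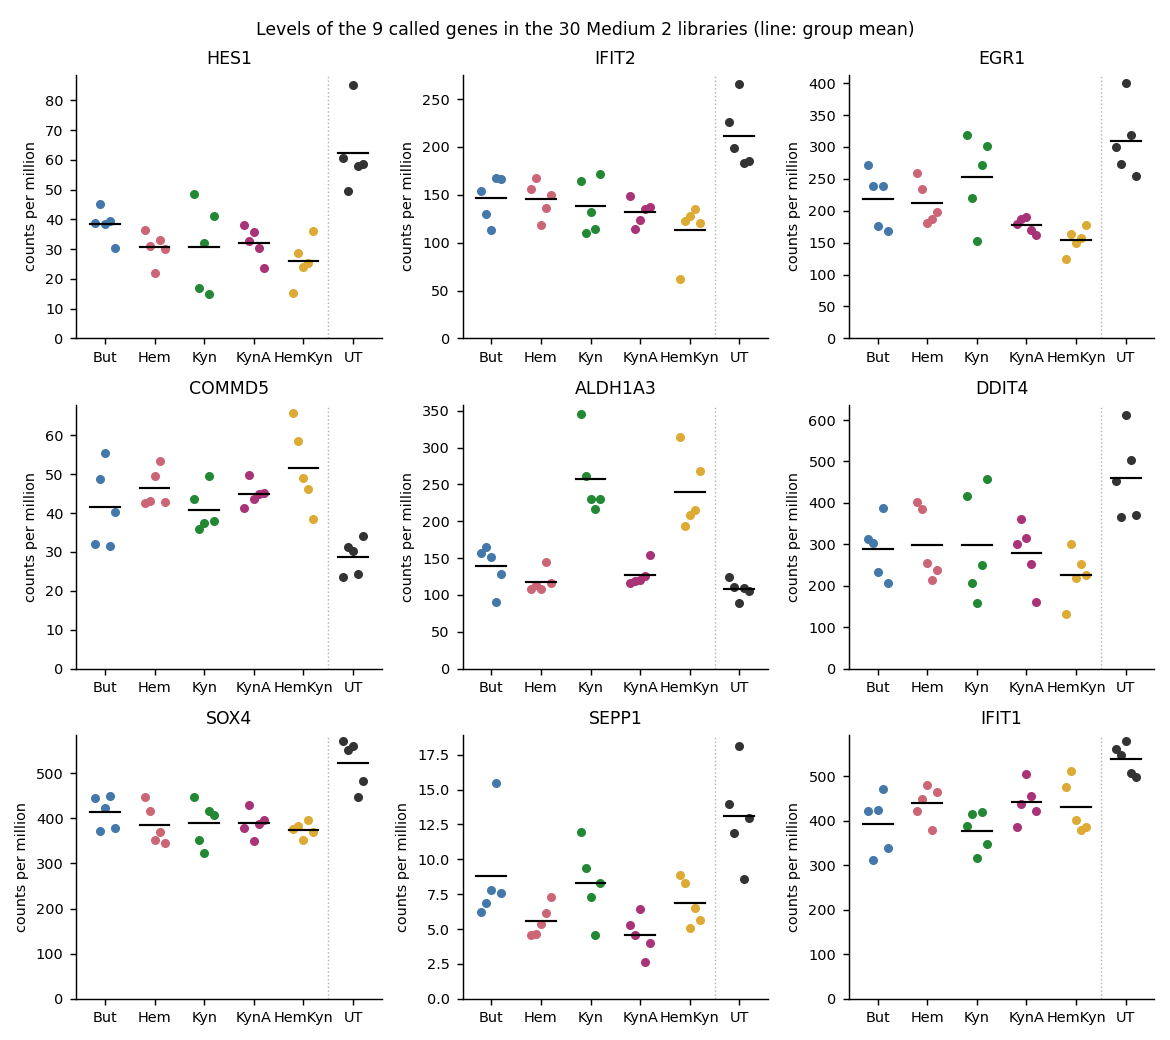
CPM of the 9 genes in each Medium 2 library, with 5 points per group, the exposed groups to the left of the untreated group, and lines at group means. In HES1 and IFIT2 all 25 exposed points lie below the 5 untreated points, while in ALDH1A3 the 2 groups with kynurenine stand above the rest, with means of 257 and 240 CPM against 108 CPM in untreated libraries.

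Among the other genes that fell, EGR1 is an immediate early zinc-finger transcription factor (chr5:138465479-138469303). It had a lowest, median and highest level of 125, 186 and 319 CPM in exposed libraries, against 299, 274, 399.7, 318 and 254 CPM in untreated ones. The groups overlapped, with 20 of 25 exposed libraries below all untreated ones, and 3 of the 5 kynurenine libraries, at 319, 271 and 301 CPM, lay within the untreated range. Its averaged log2 fold change was -0.63 (95% interval -0.86 to -0.39, adjusted p = 0.00541, edgeR). DDIT4 (chr10:72273924-72276036) had 133, 253 and 458 CPM as lowest, median and highest exposed level, against 453, 366.5, 613, 502.5 and 371 CPM in untreated libraries. It too overlapped, with 20 of 25 below, and the log2 fold change was -0.74 (95% interval -1.05 to -0.43, adjusted p = 0.0247, edgeR).

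SOX4, a SOX-family transcription factor with roles in progenitor cells and cancer (chr6:21593751-21598619), had an exposed range of 324 to 449 CPM with a median of 383 CPM, against 572.5, 551, 561, 448 and 482 CPM in untreated libraries. Of 25 exposed libraries 22 were below all untreated ones, and the lowest untreated library, well B5, lay among the highest exposed. The log2 fold change of -0.42 was smaller than most but had the narrow interval -0.60 to -0.24 (adjusted p = 0.0248, edgeR). SEPP1, now named SELENOP, encodes the secreted carrier of selenium in plasma (chr5:42799880-42811892) and had the fewest counts of the 9, with 5 to 33 counts per library. It had a lowest, median and highest level of 2.62, 6.44 and 15.5 CPM in exposed libraries, against 13.9, 11.9, 18.1, 8.58 and 12.99 CPM in untreated ones. The groups overlapped, with 21 of 25 below, and the log2 fold change was -0.99 with the wide interval -1.41 to -0.56 (adjusted p = 0.0262, edgeR). SEPP1 overlaps CCDC152 on the opposite strand.

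Of the 2 genes that rose, COMMD5, a COMM domain protein gene on chromosome 8 that overlaps ZNF7 on the opposite strand, had 31.7, 43.7 and 65.8 CPM as lowest, median and highest exposed level, against 23.6, 31.3, 30.2, 24.4 and 34.02 CPM in untreated libraries. Of 25 exposed libraries 23 were above all untreated ones, and the mean of each of the 5 exposed groups was higher than the untreated mean. Its log2 fold change was 0.64 (95% interval 0.39 to 0.90, adjusted p = 0.0130, edgeR). ALDH1A3, which makes retinoic acid from retinaldehyde (chr15:100879831-100916626), averaged 257 ± 52.2 CPM with kynurenine and 240 ± 50.3 CPM with the combination (SD, n = 5 each). It averaged 139 ± 30.2 with butyrate, 118 ± 15.5 with hemin and 127 ± 15.2 CPM with kynurenic acid, against 108 ± 12.5 CPM in untreated spheroids. All 10 libraries with kynurenine were above every other Medium 2 library, whereas the 15 others overlapped the untreated ones, and the averaged log2 fold change was 0.63 (95% interval 0.37 to 0.88, adjusted p = 0.0236, edgeR).

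The single-compound comparisons each set 5 exposed against the same 5 untreated libraries. Kynurenine gave 3 genes past the threshold, 0.0266% of those tested: ALDH1A3 at a log2 fold change of 1.25, CYP1A1 at 1.42 and IFIT1 at -0.52 (adjusted p = 0.0498, edgeR). Kynurenic acid gave 2, or 0.0177%: EGR1 at -0.80 and SEPP1 at -1.53 (adjusted p = 0.0341 each, edgeR). Hemin with kynurenine gave 63, or 0.558%, with 35 higher (0.31%) and 28 lower (0.248%), and its libraries had 2151092 to 2981625 counts, against 1346135 to 2381002 in the other exposed libraries. With every library thinned to the depth of the smallest, hemin with kynurenine gave 64. The 63 genes include 7 of the 9, all but SEPP1 and IFIT1. Butyrate and hemin gave 0 genes by edgeR (0% of those tested), with 401 and 855 genes at an unadjusted p under 0.05, 0 and 0 genes by DESeq2, and 3 and 11 by limma voom. Leaving out 1 library moved the count for the combination to 36 (well G4), 24 (H4), 15 (A5), 39 (B5), 22 (C5), 15 (H7), 30 (A8) and 28 (D8), and that for kynurenine to 6 (F6) and 8 (H7). For kynurenic acid it was 0 without G4, A5 or any of its own 5 libraries and 1 without C5. Across the 5 compounds the number of genes past the threshold every time was 0 by edgeR, DESeq2 and limma voom alike.

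**Figure D2:**
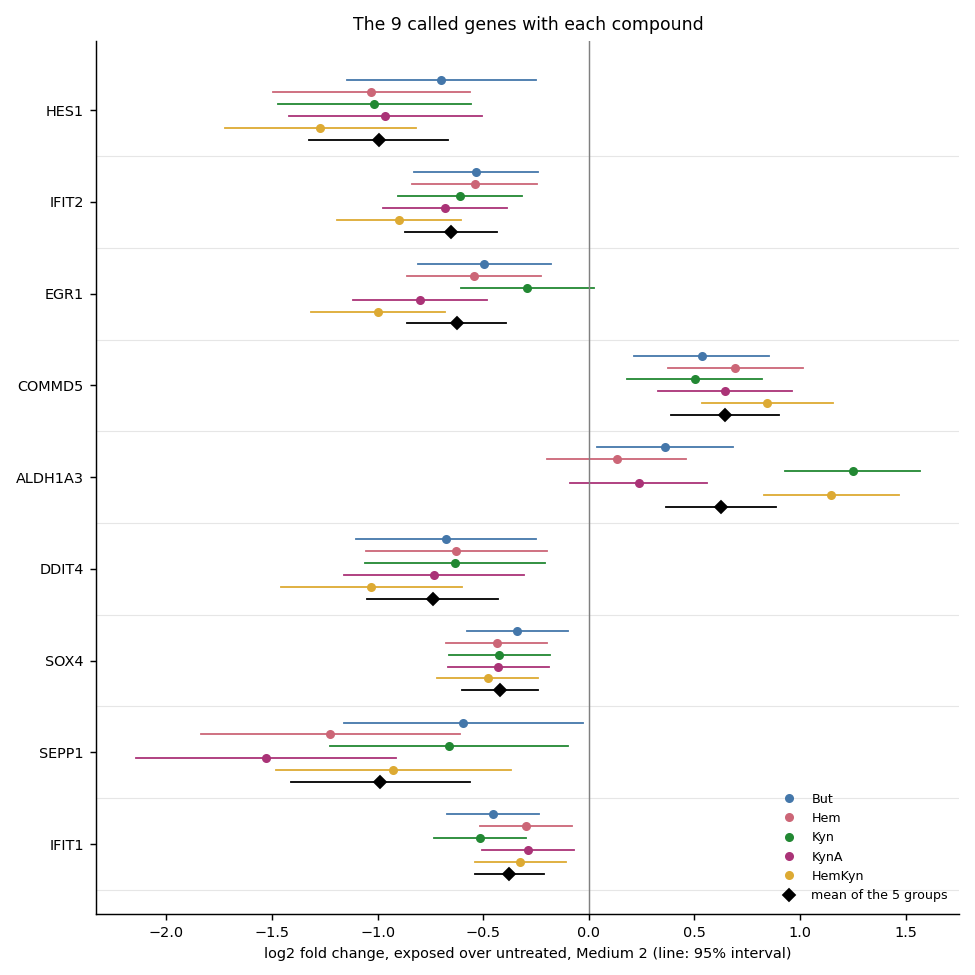
Log2 fold change with 95% interval of each of the 9 genes for each compound against the shared untreated libraries, and for the average of the 5. All 45 single-compound values have the sign of their average, and ALDH1A3 spreads most, with 0.13 for hemin and 1.25 for kynurenine.

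Sizes varied with the compound. HES1 was at -0.70 with butyrate, -1.03 with hemin, -1.02 with kynurenine, -0.96 with kynurenic acid and -1.27 with the combination on the log2 scale. IFIT2 ran between -0.54 with butyrate and -0.90 with the combination, DDIT4 between -0.63 with hemin and -1.03 with the combination, and COMMD5 between 0.50 with kynurenine and 0.84 with the combination. EGR1 was nearest 0 with kynurenine, at -0.29, and farthest with the combination, at -0.996, and SEPP1 ran between -0.59 with butyrate and -1.53 with kynurenic acid. Across the 5 exposed groups, in an F-test of their 5 means, which compares no untreated mean although all 60 libraries share the estimate of spread, 5 genes differed, or 0.0443%, and 1349 had an unadjusted p under 0.05. They included ALDH1A3 (adjusted p = 1.3e-07), CYP1A1 (adjusted p = 0.000199), RP9 and MED31. The other 8 of the 9 genes missed the threshold, with adjusted p between 0.101 for EGR1 and 0.939 for SOX4, which does not show that the compounds act alike on them. Leaving out 1 library moved the count of 5 to between 2 (well D8) and 75 (F6), and it was 3 without untreated wells H4, A5 or B5. The average over 4 of the 5 compounds gave 19 genes without butyrate, 11 without hemin, 8 without kynurenine, 11 without kynurenic acid and 2 without the combination, HES1 and IFIT2 (adjusted p = 0.00999 each, edgeR). Of the 9, ALDH1A3 (adjusted p = 0.213) and IFIT1 (0.0841) missed the threshold without the kynurenine group, both by edgeR. SEPP1 missed it without hemin (0.0645) and without kynurenic acid (0.126), and ALDH1A3 was at 0.269 without the combination.

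How far the 9 genes rest on the untreated libraries was looked at in 4 ways. In one, when each labelled group of Medium 2 was set against the mean of the other 5 groups, butyrate gave 0 genes (594 with unadjusted p under 0.05 by edgeR), hemin 1 (0.00885%), SNAR-A8, kynurenine 2 (0.0177%), ALDH1A3 and CYP1A1, kynurenic acid 0 (549) and hemin with kynurenine 147 (1.3%), of which 102 were higher (0.903%) and 45 lower (0.398%). The untreated group against the other 5 is the averaged comparison with its sign turned round, so its count is the 9. Leaving out 1 library moved the count for the combination to 93 (well D5), 269 (F6), 77 (C7), 296 (G7), 9 (H7), 7 (A8) and 43 (D8), and that for kynurenine to 11 (F6), 5 (B7) and 5 (H7), and hemin had 0 without 27 of the 30 libraries. With all libraries, the untreated count of 9 was above those of 4 of the 5 compounds and below that of the combination. Being the averaged comparison itself, it adds no separate measure of dependence on the untreated libraries. The groups set against kynurenine or hemin alone included the combination, and those set against the combination included both. The counts are therefore not alike, and no conclusion is drawn from their order.

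In another, each library was left out in turn. Without any of the 25 exposed libraries the count of genes was 9 to 17, the most without the kynurenine library of well F6, and all 9 stayed. Without an untreated library it was 4 (well G4), 5 (H4), 0 (A5), 8 (B5) and 7 (C5). HES1, IFIT2 and EGR1 missed the threshold in 1 of the 30 fits, the one without well A5, and each of the other 6 missed it in 3 or 4, each time a fit without an untreated library. An untreated library is 1 of 5 in its arm and an exposed one 1 of 25. Leaving out an untreated one therefore costs more precision whatever its values. The unequal losses alone do not show that the untreated levels were unusual. Well A5 had the highest untreated level in 6 of the 7 genes that fell, all but SOX4, with 85.2 CPM of HES1, 266 CPM of IFIT2, 613 CPM of DDIT4 and 18.1 CPM of SEPP1. Its depth was 1907425 counts and its distance from the group mean was 0.404, the lowest of the 5 untreated libraries. Without A5 the log2 fold changes were -0.86 for HES1 and -0.56 for IFIT2 (adjusted p = 0.0763 each), -0.52 for EGR1 (0.212), -0.62 for DDIT4 (0.393), -0.40 for SOX4 (0.225), -0.84 for SEPP1 (0.402), -0.35 for IFIT1 (0.244), 0.66 for COMMD5 (0.0763) and 0.56 for ALDH1A3 (0.241), all adjusted p by edgeR. All 9 kept their sign. For HES1 and IFIT2, whose exposed libraries were all below the 5 untreated ones, leaving out an untreated library cannot change that separation. Their untreated means without A5 were 56.8 ± 4.86 CPM and 198 ± 19.4 CPM (SD, n = 4).

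**Figure D3:**
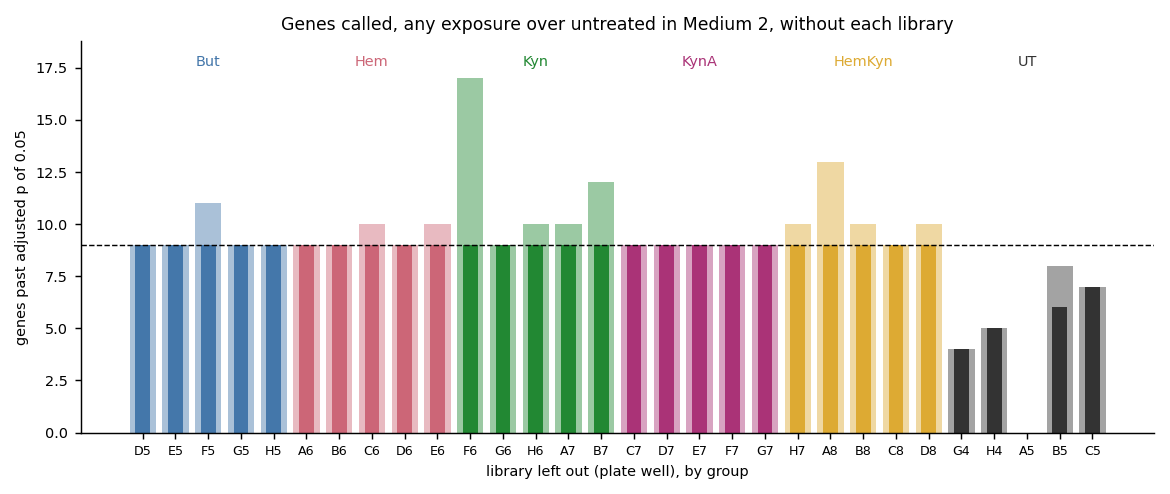
Number of genes past the threshold in the averaged Medium 2 comparison when 1 library is left out, by well and group, with the value of 9 for all libraries as a line. Leaving out an exposed library gave 9 to 17 genes, and leaving out an untreated one 0 to 8.

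The same average was also taken in Medium 1, whose 30 libraries enter the Medium 2 average through the shared estimate of spread and not through its means. It gave 0 genes by edgeR, 0 by DESeq2 and 0 by limma voom, with 923 at an unadjusted p under 0.05, and its smallest adjusted p was 0.0857, for CYP1A1 at a log2 fold change of 1.48; without the untreated library of well E1 it gave 1 gene. Of the 9 genes, 5 were above 0 and 4 below: HES1 -0.02, IFIT2 -0.31, SOX4 -0.19 and IFIT1 -0.22, and EGR1 0.41, COMMD5 0.076, ALDH1A3 0.34, DDIT4 0.12 and SEPP1 0.13. HES1 had a median of 45.96 CPM (range 15.9 to 74.9) in exposed and 47.7 CPM (range 30.3 to 51.4) in untreated Medium 1 libraries. EGR1 had a median of 120 CPM (range 73.9 to 192) in exposed and 88.2 CPM (range 81.3 to 121) in untreated ones. The test of the difference between media found 1 gene, EGR1 (0.00885% of those tested), at -1.03 on the log2 scale (SE 0.178, adjusted p = 0.00305, edgeR), and 2 genes without the Medium 1 hemin library of well G2. For the other 8 the difference between media missed the threshold, with a log2 difference of -0.97 for HES1 (adjusted p = 0.329) and -0.86 for DDIT4 (adjusted p = 0.694).

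**Figure D4:**
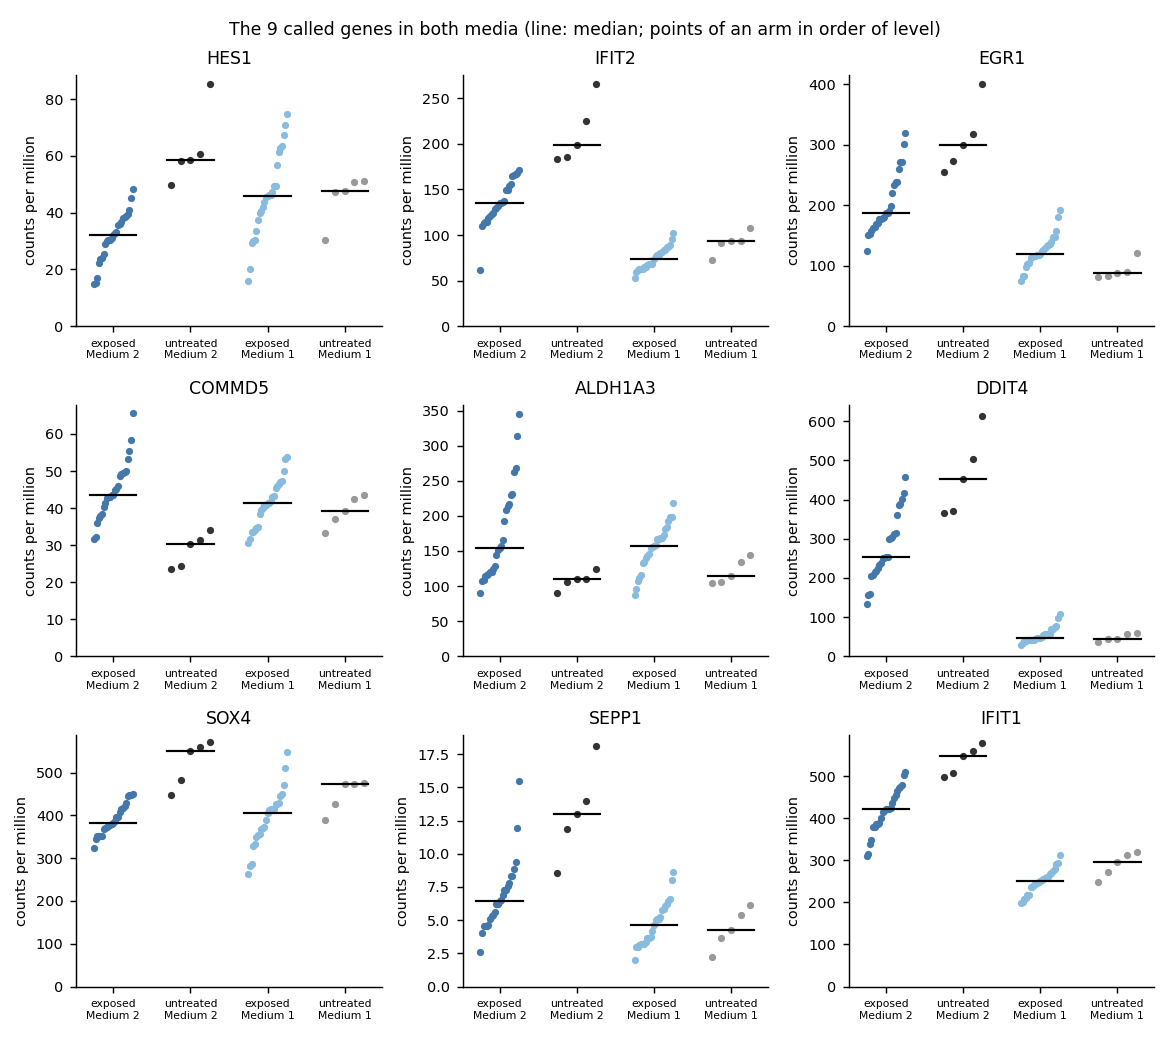
CPM of the 9 genes in exposed and untreated libraries of both media, with 25 exposed and 5 untreated points per medium and exposed points to the left. In Medium 2 the exposed HES1 and IFIT2 points lie below all untreated points, and in Medium 1 both genes overlap. The Medium 1 HES1 medians were 45.96 CPM in exposed libraries, pooled over compounds whose means differ in direction, and 47.7 CPM in untreated ones.

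Finally, in a comparison added after the data were seen, the media were set against each other, in untreated and in exposed libraries. The untreated comparison uses the same untreated Medium 2 libraries as the average, and the exposed one does not. Medium 2 differed from Medium 1 in 721 genes among untreated libraries, 6.38% of those tested (304 higher, 2.69%, and 417 lower, 3.69%), and in 4914 among exposed ones, 43.5% (2447 higher, 21.7%, and 2467 lower, 21.8%), with 25 exposed and 5 untreated libraries per medium. DDIT4 was higher in Medium 2 by 3.25 among untreated and 2.39 among exposed libraries on the log2 scale, IFIT2 by 1.21 and 0.86, IFIT1 by 0.89 and 0.74, EGR1 by 1.73 and 0.70, and SEPP1 by 1.59 and 0.48. All 5 were higher in Medium 2 in both comparisons. HES1 differed in sign, at 0.46 among untreated (adjusted p = 0.229) and -0.51 among exposed libraries (adjusted p = 4.51e-05, edgeR). COMMD5 was at -0.45 (adjusted p = 0.0813) and 0.12 (adjusted p = 0.139), SOX4 at 0.22 (adjusted p = 0.304) and -0.0054 (adjusted p = 0.947), and ALDH1A3 at -0.16 (adjusted p = 0.659) and 0.12 (adjusted p = 0.148). Because all 5 single-compound values subtract the same untreated mean, a level that was high in those 5 libraries and a fall with every compound cannot be told apart within Medium 2. In these bulk samples, fewer cells of a type and less RNA per cell also cannot be told apart.

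Members of known programmes were then counted in the same average. They are given as counts and medians beside those of all tested genes, whose median log2 fold change was 0.00036 with 16.2% higher and 16.8% lower in one sign with every compound. Of 32 tested immediate early genes, EGR1 passed, 24 were lower with every compound and 0 higher, and the median was -0.31. FOSL2 was at -0.53 (adjusted p = 0.129), JUNB at -0.43 (0.172), NR4A2 at -0.45 (0.453) and KLF4 at -0.59 (0.363), all edgeR values that missed the threshold. Of 30 interferon response genes, IFIT1 and IFIT2 passed, 21 were lower and 1 higher in one sign, and the median was -0.26. IFIT3, of the same family, was at -0.38 (0.0792), OASL at -0.47 (0.332), and IFI35 was the gene on the higher side, at 0.49 (0.686).

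Of 22 hypoxia-inducible factor targets 0 passed (9 at an unadjusted p under 0.05 on the lower side by edgeR), 14 were lower and 0 higher in one sign, and the median was -0.25. Their members include VEGFA, the angiogenic growth factor, at -0.38 (adjusted p = 0.591), the glucose transporter SLC2A1 at -0.37 (0.411), the vasodilator gene ADM at -0.54 (0.526) and the repressor BHLHE40 at -0.57 (0.222). Of 7 metallothioneins 5 were lower with every compound, with a median of -0.22, and of 22 TGF-beta and BMP feedback genes 9 were lower and 1 higher, with a median of -0.13, among them ID1 at -0.35 (0.187). Medians above 0 were smaller in size. The median was 0.081 in 39 mitosis genes, with 17 higher and 3 lower in one sign, among them the mitotic kinases TTK at 0.30 (0.302) and AURKA at 0.29 (0.305), and 0.069 in 34 proteasome genes, with 6 higher and 0 lower. In 34 targets of the amino acid stress factor ATF4, which hold DDIT4, 7 were higher and 6 lower, with a median of 0.03, and in 27 heme and iron genes 5 were higher and 3 lower, with a median of -0.0022. No list was tested.

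**Figure D5:**
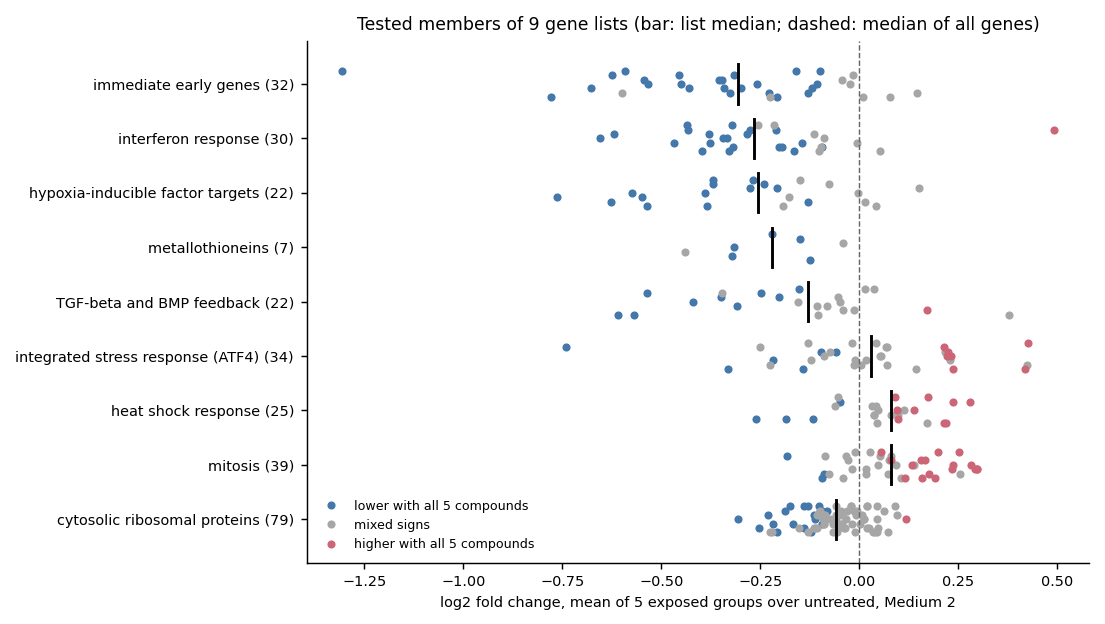
Averaged log2 fold changes of tested list members in Medium 2, with the median of each list and that of all tested genes. Immediate early genes, interferon response genes, hypoxia targets and metallothioneins lie mostly on the lower side. Those lower with every compound were 24 of 32, 21 of 30, 14 of 22 and 5 of 7, against 16.8% of all genes.

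Without well A5 these list medians stayed below 0: the median was -0.23 in immediate early genes, with 22 of 33 lower in one sign, -0.19 in interferon response genes, with 20 of 30, -0.24 in hypoxia targets, with 12 of 22, and -0.22 in metallothioneins, with 4 of 7. Of all 11401 genes tested in that fit, 1927 were lower in one sign. All compounds still shared the remaining untreated libraries there, so these counts and medians are not separate support. In Medium 1 the list medians were 0.037 for immediate early, -0.14 for interferon and -0.048 for hypoxia genes. Between the media, medians of immediate early genes were 0.58 higher in Medium 2 among untreated libraries and 0.30 among exposed ones, and those of interferon genes 0.49 and 0.29. The untreated comparison again shares the untreated Medium 2 libraries with the average, so these values do not stand as separate support.

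Of the 12 genes named whatever their result, DDIT4 and EGR1 passed, and the others lay on both sides of 0. CYP1A1, the aryl hydrocarbon receptor's best known target, averaged 29.1 ± 7.78 CPM with kynurenine and 27.4 ± 3.81 CPM with the combination, against 10.9 ± 1.59 CPM in untreated spheroids (SD, n = 5 each), but 14.6, 12.7 and 14.4 CPM with butyrate, hemin and kynurenic acid, and its averaged log2 fold change of 0.76 just missed the threshold (SE 0.187, adjusted p = 0.0832). TIPARP, another receptor target, was at -0.48 (SE 0.153, adjusted p = 0.332). With the combination against untreated spheroids TIPARP was lower past the threshold, at -0.88 (adjusted p = 0.0284, edgeR), where CYP1A1 was higher, at 1.33. HMOX1, the heme oxygenase that heme induces, was at -0.036 (SE 0.152, adjusted p = 0.974) and averaged 46.2 ± 3.86 CPM with hemin and 52.9 ± 7.16 CPM with hemin and kynurenine, against 48.7 ± 6.71 CPM in untreated spheroids (SD, n = 5 each). FTH1, the ferritin heavy chain, was at -0.0089 (SE 0.077, adjusted p = 0.988) and CDKN1A, the cell cycle inhibitor p21, at -0.018 (SE 0.0933, adjusted p = 0.978). ASNS, which makes asparagine, was at 0.42 (SE 0.191, adjusted p = 0.614), HERPUD1, of the unfolded protein response, at -0.21 (SE 0.117, adjusted p = 0.695), NEAT1 at 0.16 (SE 0.289, adjusted p = 0.935) and MYC at -0.45 (SE 0.226, adjusted p = 0.647). None of these 9 passed in the average of Medium 2, and TXNIP was not among the tested genes.

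The threshold of adjusted p = 0.05 lay between IFIT1 at 0.0267 inside and ANKRD37 at 0.0720 outside, which was the nearest gene beyond it. Other genes up to an adjusted p of 0.1 are given here after their values were seen. Lower ones were the hypoxia-induced ANKRD37 (-0.76) and HILPDA (-0.55), the interferon-induced HERC5 (-0.41) and IFIT3 (-0.38), the polyamine acetyltransferase SAT1 (-0.47), the intestinal progenitor factor SOX9 (-0.46), IGFBP6 (-0.68) and ARRDC3 (-0.58), as averaged log2 fold changes. Higher ones were DYNLL2 (0.67), POC1A (0.66), CYP1A1 (0.76) and KCTD7 (1.42). KCTD7 had few counts, 2 to 30 per library of Medium 2, and 8 of its 25 exposed libraries lay within the untreated range.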

How the data were processed

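The members and gene lists were chosen with earlier results of these data known. The labels give spheroids, compounds and doses, and the authors deposited expected counts per gene for 60 libraries; the submitters' processing notes name Salmon 1.5.2, STAR, UMI-tools 1.1.2, cutadapt 3.4 and FastQC 0.11.9, and the GRCh38 build. No source used here gives their order, settings, annotation or strand. RNA input was 48 ng with 18 PCR cycles, per the labels' protocols.

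Of all deposited estimated counts 10.1% were fractional, so values were rounded to integers. Genes were kept by filterByExpr (minimum count 10, minimum total 15), holding 99.6% of counts, and scaled by TMM. One edgeR 4.0.16 quasi-likelihood model in R 4.3.3, fitting 12 group means over 60 libraries, gave the contrasts, with 48 residual degrees of freedom, a common dispersion of 0.0316, two-sided F-tests, Benjamini-Hochberg adjustment over all genes and a threshold of 0.05. Limma 3.58.1 and DESeq2 1.42.0 served as alternatives. RefSeq had the symbol of 10325 tested genes and an older symbol for 761 more, and 212 were unmatched.

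Columns carry a plate well and no replicate number. The titles call samples biological replicates, without saying whether cultures or days were separate, so a p-value here reflects the scatter of these samples, which may be technical. Within a group, no 2 libraries agreed within sampling noise, with chi-square per degree of freedom of 2.35 to 18.5 in Medium 2 and 2.21 to 20.8 in Medium 1. Named genes were all that passed with at least 10 CPM and one sign with every compound, plus 12 named whatever their result. Some genes are not reported here. Lists had 40 entries, and the mitochondrially encoded list had 0 members in the table. The exact permutation test used every choice of 5 of 30 libraries.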

Additional observations from a re-analysis of the deposited data

Results flagged for a closer look

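Of 144 sets of 5 libraries that were searched for a library far from the others, 10 held one, and chance marks about 1 in 20. The combination library of well H7 had 61.6 CPM of IFIT2, against 120.4 to 135 CPM in the other 4, and 246 CPM of ASNS, against 113 to 129.8 CPM. Its median correlation with the libraries of its medium was 0.940, against 0.962 to 0.965, and its distance from the group mean 0.554, against 0.368 to 0.403. The kynurenine library of well A7 had a median correlation of 0.913, against 0.955 to 0.963, and a distance of 0.768, against 0.451 to 0.542. ALDH1A3 had 145 CPM in the hemin library of well D6, against 107 to 116 CPM, and 154 CPM in the kynurenic acid library of well G7, against 117 to 125 CPM. SEPP1 had 15.5 CPM in the butyrate library of well G5, against 6.19 to 7.83 CPM, and MYC 60.03 CPM in the butyrate library of well F5, against 84.6 to 90.1 CPM. The averaged EGR1 response differed between the media, by -1.03 on the log2 scale in Medium 2 minus Medium 1 (adjusted p = 0.00305, edgeR). Of these libraries, none is untreated, but the search did not cover genes named only for lying just outside the threshold. Among those, untreated well A5 had 1034 CPM of SAT1, against 750 to 798 CPM in the other 4 untreated libraries. Untreated well G4 had 4.82 CPM of KCTD7, against 1.32 to 2.16 CPM in the other 4.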

How the results depend on the processing

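No paired analysis was possible because the table's columns carry plate wells and no replicate number. The 9 genes of the average numbered 21 with DESeq2, 37 with limma voom and quality weights, 16 with plate row as a covariate, 19 without the butyrate group, 2 without the combination and 0 without wells A5 and A7, an alternative chosen after seeing the data. They shared 8, 9, 7, 9, 2 and 0 of the 9, and with RLE scaling, no filter, Medium 2 libraries alone and thinning the count stayed within 1.5 times. The members changed in some of these settings. Medium 2 libraries alone lost DDIT4 (adjusted p = 0.107, edgeR) and IFIT1 (0.0673). The fit with no filter lost SEPP1 (0.069) and IFIT1 (0.0505), and thinning lost SEPP1 (0.0597). The count of genes that passed in the average and had one sign with every compound was likewise 21, 37 and 16 with DESeq2, voom and plate row.

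Counts for butyrate were 3 with voom and for hemin 11 with voom. Kynurenine gave 13 with DESeq2 and 7 with voom. Kynurenic acid gave 7 with DESeq2, 13 with voom, 1 with no filter, 1 with plate row and 0 with Medium 2 alone or thinned. The combination gave 131 with DESeq2 and 201 with voom. Against the other 5 groups it gave 339, 324 and, with plate row, 55, and hemin gave 2 with no filter, 3 with voom and 0 with DESeq2, Medium 2 alone, plate row or thinning. The test among exposed groups gave 3 with RLE, 22 with no filter, 87 with voom, 3 with Medium 2 alone and 2 thinned, and was not run with DESeq2. The difference between media gave 2 with no filter and 5 with voom. Untreated media differed in 1301 genes with voom, in a comparison added after the data were seen. The cause was not tested.

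Leaving out 1 library gave 0 to 17 genes for the average and for those of them with one sign with every compound (4 without G4), 15 to 77 for the combination (36 without G4, 24 without H4, 39 without B5, 30 without A8, 28 without D8), 7 to 296 for it against the other groups (93 without D5, 269 without F6, 43 without D8), 2 to 8 for kynurenine (6 without F6), 2 to 11 for it against the others, 0 to 3 for kynurenic acid, 0 to 1 for hemin against the others, 1 to 2 for the difference between media, 0 to 1 for Medium 1 and 2 to 75 among exposed groups.

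The share of the 50 most counted genes, 0.0202 percentage points higher in exposed libraries, was -0.094 without well A7. Genes near 0 changed sign: HMOX1 was 0.031 without H4, FTH1 0.0079 with plate row, 0.0054 without the kynurenic acid group, 0.013 without G4 and 0.011 without B5, and CDKN1A 0.037 with plate row and 0.049 without the butyrate group. With 5 untreated libraries, fold changes of low genes such as SEPP1, at 5 to 33 counts, are imprecise.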

Other observations

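The remaining gene lists are given as counts and medians of the averaged Medium 2 comparison, with no test. Of 79 cytosolic ribosomal protein genes 20 were lower and 1 higher in one sign with every compound, with a median log2 fold change of -0.059. Of 40 DNA replication genes 10 were higher and 4 lower, with a median of 0.057, and of 25 heat shock response genes 9 were higher and 4 lower, with a median of 0.081. Of 15 aryl hydrocarbon receptor targets, ALDH1A3 passed on the higher side, while 8 were lower and 3 higher in one sign, with a median of -0.15. Of 17 selenoprotein genes, SEPP1 passed on the lower side, 5 were lower and 1 higher, with a median of -0.13. In the unfolded protein response 10 of 24 genes were lower and 3 higher, with a median of -0.08. For glucose uptake and glycolysis (23 genes, 6 lower), Wnt feedback and stem cell genes (21, 6 lower), the epithelial-mesenchymal transition (12, 5 lower), FOXO and MondoA starvation genes (16, 6 lower) and segmental-duplication family transcripts (31, 4 lower) the medians were -0.074, -0.12, -0.18, -0.17 and -0.073. The other 17 lists had medians between -0.13 for Ras-ERK feedback and 0.06 for NRF2 targets, and 0 of their genes passed the test by edgeR.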
